A study of Mus musculus with 2 samples.

Results

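The genes described here are 9 members of the cytoplasmic tyrosine kinase pathway of immune cells: the Src-family kinase genes Src, Lyn and Fgr, the Syk kinase gene, the Tec-family kinase genes Btk and Tec, the adaptor genes Fyb and Skap2, and Vav1, a guanine nucleotide exchange factor gene. They were chosen by symbol, and all 9 matched 1 gene each among 55536 annotated genes, of which 22028 code for protein. The cells were bone-marrow-derived macrophages (BMDM), marrow cells of C57BL/6J mice matured into phagocytes in culture, from a standard inbred strain with no genetic change named. Every culture was treated with lipid A, the part of lipopolysaccharide that Toll-like receptor 4 senses, at 100 ng/ml over 12 h. The agent was then washed out for 12 h and given again at 100 ng/ml for 75 min. RNA from the chromatin fraction, which holds transcripts still attached to or near their genes, was depleted of ribosomal RNA and sequenced. The design holds 1 condition and 2 libraries, numbered as biological replicates, made from 250 ng of RNA in replicate 1 and 500 ng in replicate 2. Both carry the same donor entry, and the labels do not spell out separate cultures, so the spread given here is that between these 2 samples. The labels record neither age nor sex of the mice, and without an untreated group no effect of lipid A was measured.

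Src-family kinases sit under the plasma membrane and phosphorylate the tyrosine motifs of immune receptors and integrins. Syk binds these phosphorylated motifs through its paired SH2 domains, and Tec-family kinases, drawn to the membrane by their PH domain, then act on phospholipase C gamma. Adaptors such as Fyb (also called ADAP) and Skap2 hold the complexes together and link them to integrins and actin, while Vav proteins load Rac GTPases with GTP. In macrophages this machinery serves Fc receptors, integrins and C-type lectin receptors.

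Each library was quantified by the submitters in 2 ways, once from alignments to the transcriptome (called alignment-based) and once directly from the reads (alignment-free). The alignment-based table is the main source. Levels are in TPM, a share of the library per effective transcript length that sums to the same total in each library, so that genes can be compared with each other. The libraries held 18388793 and 17640464 expected counts on annotated genes. The 10 macrophage markers listed for this check, among them Adgre1 and Csf1r, were all at 1 TPM or more in both libraries and summed to 1280.83 TPM in replicate 1 and 912.57 TPM in replicate 2. The 8 B cell markers held 6 and 1 counts in all, with 5 of the 8 at 0. The 8 neutrophil markers held 3 and 5 counts, with 3 at 0, and the 6 mast cell markers held 4 and 26, with 4 at 0. Of 8 T cell markers, 5 were at 0 and 2 reached 1 TPM, with sums of 4.44 and 4.90 TPM, and of 6 megakaryocyte and platelet markers 3 reached it, with sums of 8.49 and 8.84 TPM. By the alignment-free table the T cell markers summed to 21.3 and 26.3 TPM, of which Cd3d, picked for its value, held 15.5 and 20.1 TPM. In such bulk samples fewer cells of a type and less RNA per cell cannot be told apart.

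Several of these kinases are annotated with coding isoforms that differ by 1 in-frame segment, so that the tables give a share of each form. The sequences of 3 of them follow, read from GENCODE M21 transcripts (mouse build mm10), each 5′ to 3′ on the coding strand. Capitals mark the alternative segment and lower case the 15 coding bases on either side.
Src: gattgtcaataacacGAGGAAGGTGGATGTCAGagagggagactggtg
Syk: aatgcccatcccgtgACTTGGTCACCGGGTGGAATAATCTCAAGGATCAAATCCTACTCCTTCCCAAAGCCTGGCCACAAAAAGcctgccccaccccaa
Tec: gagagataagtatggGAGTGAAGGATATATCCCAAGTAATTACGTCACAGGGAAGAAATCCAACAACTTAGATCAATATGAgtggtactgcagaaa

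In Lyn the coding isoforms are the long LynA form (isoform Lyn-201) and the short LynB form (Lyn-202), which differ in the unique region of the kinase. Lyn-201 was at 49.73 and 30.39 TPM in replicates 1 and 2, and Lyn-202 at 30.43 and 14.83 TPM. The long form thus held 64.6 ± 3.65% (SD, n = 2) of the pair, and it was the more abundant form in both libraries. By the alignment-free table its share was 74.1 ± 2.68%. The Lyn segment of 63 bases is not a whole exon but the end of one, directly before intron sequence. Reads of transcripts not yet spliced can therefore cover it too, and their part in this share was not tested.

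The Src segment is a whole exon of 18 bases (6 codons) at chr2:157458843-157458860 on the plus strand. It is the insert in the SH3 domain known from the neuronal form of the kinase. By the alignment-based table the isoforms with it (Src-202 and Src-203) were at 0 and 0.54 TPM and those without it (Src-201, Src-204 and Src-205) at 15.05 and 22.44 TPM. The share with the insert was therefore 1.17 ± 1.66% (SD, n = 2). By the alignment-free table it was 58.1 ± 3.69%, so the insert's share in Src depended on the quantification and is uncertain.

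In Syk the segment is a whole exon of 69 bases (23 codons) at chr13:52624708-52624776 on the plus strand, in the linker between the second SH2 domain and the kinase domain. Its inclusion marks the long form of Syk, and the short form is known as SykB. Isoforms with the exon held 355.18 and 418.54 TPM against 17.07 and 19.43 TPM for Syk-202, the one without it. The share with the exon was 95.5 ± 0.106%, and 89.3 ± 1.20% by the alignment-free table. Syk-202 also ends at another 3′ end, so the 2 groups differ by more than this exon.

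The Tec segment is a whole exon of 66 bases (22 codons) at chr5:72779421-72779486 on the minus strand, which codes for the end of the SH3 domain. Isoforms with it held 12.24 and 11.02 TPM and the one without it (Tec-202) 3.59 and 3.90 TPM. The share with the exon was 75.6 ± 2.45%, against 57.5 ± 1.53% by the alignment-free table. Vav1 has an alternative exon of 117 bases (chr17:57311784-57311900) that opens the SH2 domain, and 95.3 ± 4.39% of its full coding isoforms held it. In Skap2 an alternative stretch of 21 bases (chr6:52003735-52003755) was present in 31.0 ± 1.08% of coding TPM and in 51.3 ± 1.12% of coding counts. The isoform with it, Skap2-205, is longer than Skap2-201 (3382 against 1583 bases). The share turned from below to above the isoform without it when counts replaced TPM. The Skap2 stretch is the start of an exon, directly after intron sequence. Reads of transcripts not yet spliced can cover it, as they can the whole exons given above. Their part in the shares of Src, Syk, Tec, Vav1 and Skap2 was not tested.

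**Figure D1:**
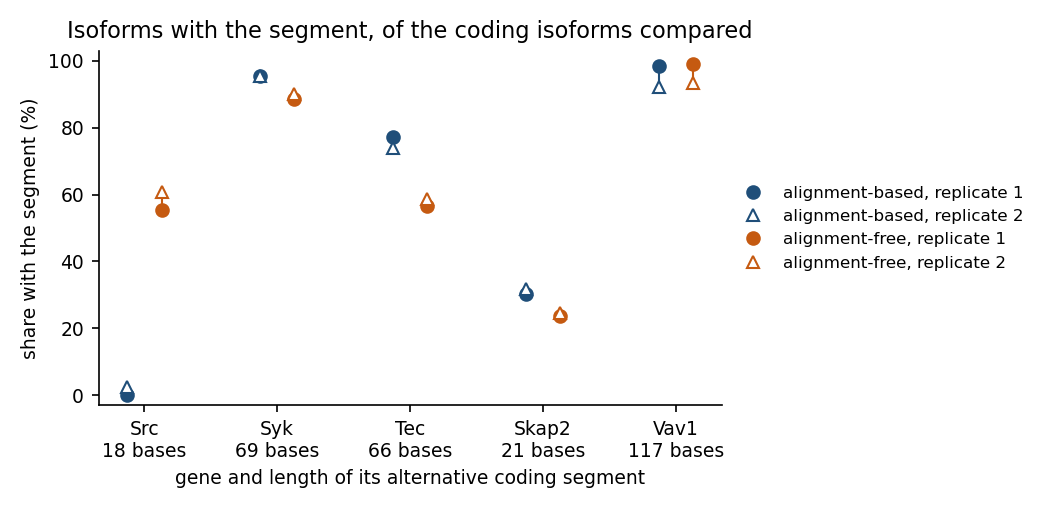
Share of isoforms holding the alternative coding segment (vertical axis, percent of TPM of the coding isoforms compared) for 5 genes, with 1 point per library and quantification joined by a line. The points of the 2 quantifications lie close together for Vav1 and far apart for Src, at 1.17% against 58.1% on average.

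Levels of the 9 genes ranged from 1131 TPM for Fyb to 0.16 TPM for Fgr. Of the 9, 7 were at 10 TPM or more in both libraries, where 17.9% of protein-coding genes were, and 8 were at 1 TPM or more, where 40.1% were. Their median level was 94.7 TPM, beside 9.37 TPM over the 8829 protein-coding genes that reached 1 TPM in both libraries. Together they took 0.434% of annotated counts in the first library and 0.438% in the second, with 95% Wilson intervals of 0.431 to 0.437% and of 0.435 to 0.441%. Syk and Fyb alone held 78.9% and 84.2% of the members' counts. Such intervals cover counting error only.

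Among the 3 Src-family members Lyn was the highest by the alignment-based table. Lyn (chr4:3678115-3813122, plus strand), the Src kinase that phosphorylates both activating and inhibitory receptor motifs, was at 164.67 and 119.31 TPM in replicates 1 and 2, or 142 ± 32.1 TPM (SD, n = 2), from 4989.68 and 2750.85 counts. Src (chr2:157418444-157471862, plus strand), the founding member of the family, was at 15.41 and 23.69 TPM (19.6 ± 5.85), from 924 and 1266 counts. The ranges of the 2 genes did not overlap there, and Lyn was lower and Src higher in replicate 2. By the alignment-free table Src averaged 159.1 TPM and Lyn 149.4 TPM, and their ranges overlapped. Fgr (chr4:132974095-133001910, plus strand), a Src kinase of mature myeloid cells, was at 0.24 and 0.08 TPM (0.16 ± 0.113), from 12 and 4 counts. It was the only one of the 9 below 1 TPM. The ratio of these counts after scaling, 0.364, had an exact counting interval of 0.0855 to 1.20. A difference between the libraries was thus not detectable on these counts. By the alignment-free table Fgr held 49 and 18 estimated counts, for which no interval was computed.

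Syk (chr13:52583173-52648792, plus strand), which couples phosphorylated receptors to the downstream kinases, was at 734.76 and 845.02 TPM (790 ± 78.0), from 42986 and 45307 counts. It ranked 20 among the protein-coding genes. The Tec-family kinases stood far lower. Tec (chr5:72755716-72868483, minus strand) was at 37.23 and 54.26 TPM (45.7 ± 12.0), from 907 and 1010 counts. Btk (chrX:134542336-134583570, minus strand), whose loss impairs B cell development, was at 10.32 and 6.86 TPM (8.59 ± 2.45), from 333 and 198 counts. Tec exceeded Btk in both libraries, with no overlap between their values.

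Fyb (chr15:6522853-6663313, plus strand) was the highest of the 9 by gene TPM and ranked 9 among the protein-coding genes, at 1135.73 and 1126.16 TPM (1131 ± 6.77), from 19968.80 and 19727.00 counts. Syk held more counts than Fyb in both libraries. On full coding isoforms alone Fyb was at 374.93 and 420.83 TPM and Syk at 372.25 and 437.97 TPM, with overlapping ranges. The lead of Fyb by gene TPM thus lay mostly on the other isoforms, at 760.79 and 705.32 TPM against 362.51 and 407.05 TPM in Syk. The binding partner of Fyb, Skap2 (chr6:51857422-52012549, minus strand), was at 120.17 and 119.66 TPM (119.9 ± 0.361), from 5556 and 5124 counts. These 2 adaptors differed least between the libraries. Vav1 (chr17:57279100-57328031, plus strand) differed most among the members above 1 TPM, at 123.59 against 65.73 TPM (94.7 ± 40.9), from 4153 and 1835 counts.

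In the order of mean TPM (Fyb, Syk, Lyn, Skap2, Vav1, Tec, Src, Btk, Fgr), 6 of 8 neighbouring pairs had values that did not overlap between the genes. Lyn and Skap2 overlapped, as did Skap2 and Vav1, so that the order among these 3 was not resolved. Fyb and Syk were apart by gene TPM but overlapped on their full coding isoforms. The widest step was between Btk and Fgr, whose means differed 53.7-fold, though the mean of Fgr rests on 12 and 4 counts. By the alignment-free table the order was Fyb, Syk, Src, Lyn, Skap2, Vav1, Tec, Btk and Fgr, with 4 pairs apart. The move of Src from below Tec to above Lyn is the one large change.

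**Figure D2:**
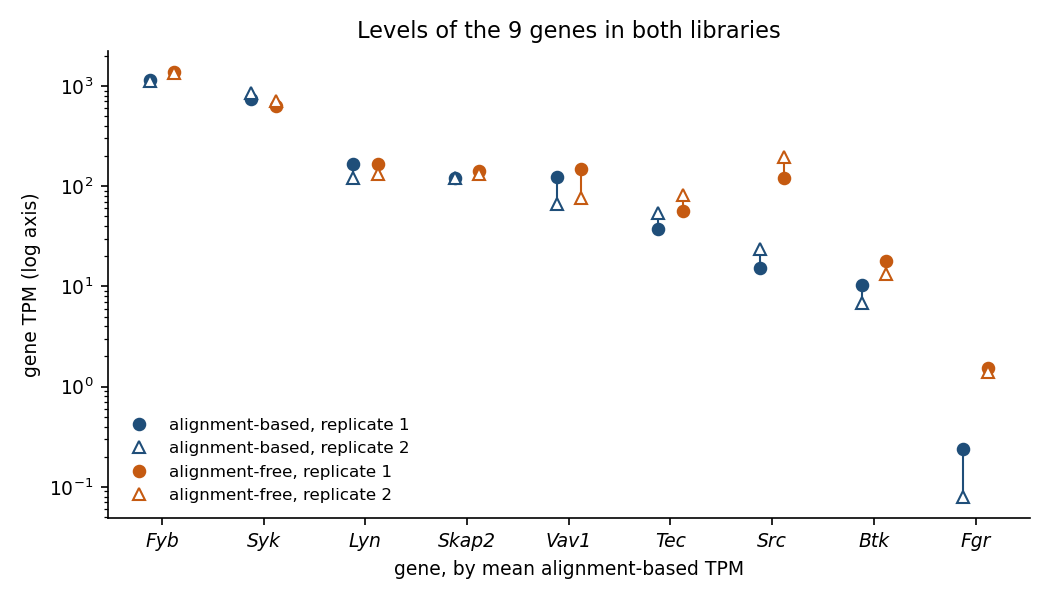
Gene TPM of the 9 genes (log axis) in replicate 1 (circles) and replicate 2 (triangles), by the alignment-based and the alignment-free quantification. Fyb and Syk lie near 1000 TPM in both, Fgr lies below 1 TPM in the alignment-based table, and Src is the gene above 1 TPM whose 2 quantifications lie farthest apart.

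Src was 8.14-fold higher by the alignment-free table, at 121.1 and 197.1 TPM. Over 9267 protein-coding genes the log2 ratio of the 2 quantifications had a median of 0.36 and a 5th to 95th percentile of -0.37 to 1.83, while that of Src was 3.02. Of the alignment-free TPM of Src, 67.1% and 69.5% lay on Src-207, a noncoding isoform of 222 bases in 4 exons from the first part of the gene, which the alignment-based table listed at 0 in both libraries. Its 81.2 and 136.9 TPM came from 153 and 243 estimated counts, or 6.82% and 8.25% of the alignment-free counts of Src. The effective length assigned to it was 67.3 and 70.1 bases there, and 26.8 and 31.8 bases in the alignment-based table. So in counts this isoform was a small part of Src, and in TPM the largest.

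What separates Src-207 from the coding isoforms is an exon stretch of 106 bases at chr2:157431610-157431715 (plus strand), given because that TPM rests on reads of so short a transcript. Capitals mark the stretch and lower case the 15 bases of the neighbouring exons.
Src-207: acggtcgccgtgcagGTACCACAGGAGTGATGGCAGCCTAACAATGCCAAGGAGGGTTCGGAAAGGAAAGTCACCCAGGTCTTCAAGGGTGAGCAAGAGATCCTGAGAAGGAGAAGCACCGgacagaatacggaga

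None of the 193 words of 30 bases in Src-207 occurred in an annotated transcript of another gene, on either strand. The short noncoding Src-206 (13.9 and 24.0 TPM) and the coding Src-203 (11.7 and 13.4 TPM) were likewise found by the alignment-free table, and were at 0 or 0.36 TPM in the other. These isoforms were picked after their values were seen. Fgr had a log2 ratio of 3.19 between the quantifications, at under 2 TPM in both. The other 7 genes lay inside the 5th to 95th percentile, from -0.25 for Syk to 0.86 for Btk.

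By TPM, isoforms without a full coding frame held large shares of most of these genes in the chromatin RNA. By counts the mean share of isoforms annotated as coding was higher in every gene but Skap2. For Lyn it was 84.4% by counts and 43.3% by TPM, and for Skap2 27.4% and 39.6%. Of the 9 genes, 6 have an isoform annotated as retained intron, a class of transcripts that hold intron sequence. Skap2-206 of this class has a single exon, with all its 2443 bases outside the coding isoforms. Reads of transcripts not yet spliced can fall on such isoforms too. The share of a gene's TPM on them was 48.8 ± 0.825% for Syk, 47.0 ± 0.144% for Skap2, 46.1 ± 6.03% for Tec, 34.1 ± 19.8% for Btk, 24.6 ± 1.04% for Fyb and 20.5 ± 3.81% for Vav1 (SD, n = 2). Their median was 40.1 ± 6.27%, beside 45.1% over the 5998 protein-coding genes that have such an isoform and average 1 TPM or more, with quartiles of 27.9 and 61.3%. The members' median moved to 20.8% by counts and 29.3% by the alignment-free table, where the same genes gave 28.4% and 44.5%.

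**Figure D3:**
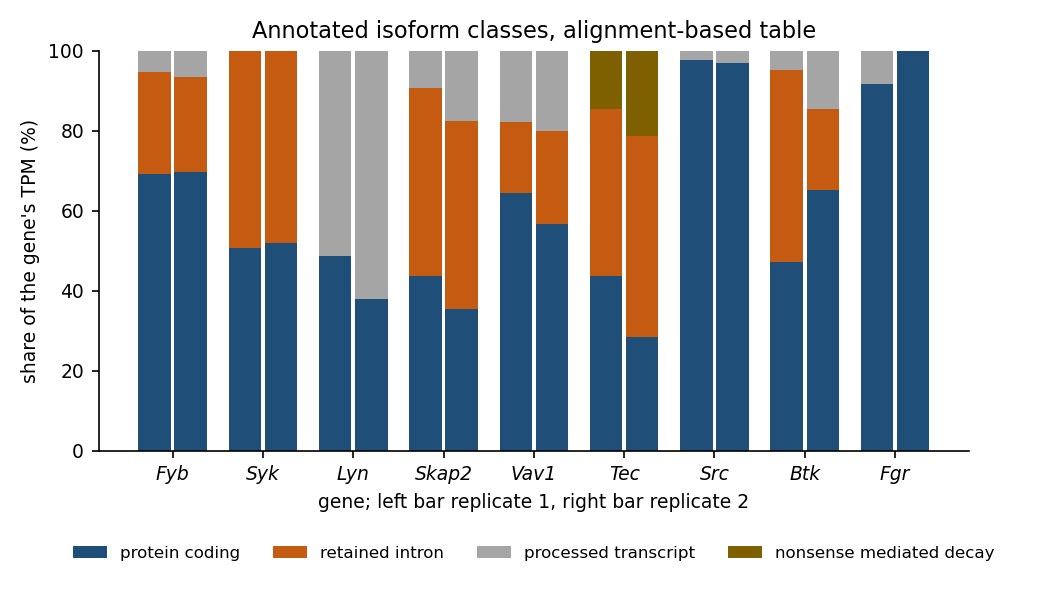
Share of each gene's alignment-based TPM (vertical axis, percent) by annotated isoform class, with replicate 1 as the left and replicate 2 as the right bar of each gene. Syk splits almost evenly between coding and retained-intron isoforms in both libraries, Src is nearly all coding, and the 2 bars of Btk differ most in the retained-intron class.

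In Syk the leading isoform by TPM was Syk-204, a retained-intron transcript of 6 exons with 1063 bases outside coding isoforms. It was at 284.75 and 318.50 TPM, above the coding Syk-201 at 264.74 and 305.47 TPM. By counts Syk-201 led, with 51.4% and 50.9% of the gene. The coding Syk-203 held 90.44 and 113.07 TPM and the second retained-intron isoform Syk-205 77.76 and 88.55 TPM. The isoform shares of Syk were thus close to each other in the 2 libraries.

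In Lyn the leading isoform by TPM was Lyn-204, a noncoding transcript of 687 bases in 2 exons, which lie within the first 61.1 kb of the gene. It has 315 bases outside the coding isoforms, which run on directly from a coding exon. Reads of Lyn transcripts not yet spliced can thus fall on it too, and their part was not tested. Lyn-204 held 82.12 and 71.22 TPM, or 49.9% and 59.7% of Lyn. The 2 coding isoforms together were at 80.16 and 45.22 TPM, a ratio of 0.564, while the noncoding ones had a ratio of 0.877. The lower Lyn level in replicate 2 thus lay mostly in the coding isoforms. By counts Lyn-201 led in both libraries.

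In the Tec-family genes the libraries differed mainly in isoforms other than the coding ones. The coding isoforms of Tec that span the whole gene were at 15.83 and 14.92 TPM, while the other isoforms were at 21.41 and 39.35 TPM, higher in replicate 2. Most of this was Tec-207, a retained-intron isoform of 3 exons in the first 45.3 kb, at 15.57 and 27.32 TPM, and Tec-206, a nonsense-mediated decay isoform, at 2.73 and 7.10 TPM. Tec-201, the main coding form, was at 9.80 and 7.99 TPM. In Btk the coding Btk-201 was at 4.75 and 4.31 TPM, and the retained-intron Btk-204 at 4.97 and 1.38 TPM. The library difference of Btk therefore lay mainly on Btk-204, with 141.55 and 35.92 counts. The short noncoding Btk-205 was at 0.49 and 1.00 TPM, from 1.91 and 3.79 counts.

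Fyb was led by its full coding isoform Fyb-201, at 374.93 and 420.83 TPM and 77.7% and 80.2% of its counts. The short partial coding isoform Fyb-210 followed with 275.24 and 282.02 TPM, and the retained-intron Fyb-202 with 122.80 and 123.89 TPM. Skap2 had no steady leader by TPM: Skap2-201, a coding form, led in replicate 1 with 36.73 TPM, against 28.84 TPM in replicate 2. Skap2-202, a retained-intron transcript of 5896 bases over the first 22.0 kb, led in replicate 2 with 33.44 TPM, against 28.05 TPM in replicate 1. The single-exon Skap2-206 held 28.30 and 22.91 TPM, the coding Skap2-205 15.90 and 13.41 TPM, and the noncoding Skap2-204 11.19 and 20.26 TPM. By counts Skap2-202 led in both libraries, with 48.8% and 57.1%.

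Vav1 was led by the coding Vav1-201, at 78.25 and 33.46 TPM, with the noncoding Vav1-202 at 22.09 and 13.18 TPM and the retained-intron Vav1-205 at 21.96 and 15.22 TPM. All 3 were lower in replicate 2. Src was led by Src-201 (11.59 and 11.15 TPM) by the alignment-based table. There the higher level of Src in replicate 2 lay on the coding isoforms Src-204 (3.46 and 6.86 TPM) and Src-205 (0 and 4.43 TPM). In alignment-free TPM it lay mostly on the noncoding Src-207. In alignment-free counts Src-207 rose from 153 to 243, and the coding Src-202 and Src-205 rose more, from 204 to 623 and from 122 to 447. Only Src-201 fell in these counts, from 887 to 596. Fgr-201, the full coding form, held 0.20 and 0.08 TPM. Over the 9 genes the leading isoform was the same in both libraries for 7 by TPM (the exceptions were Btk and Skap2) and for all 9 by counts, and by TPM the same in both libraries and both quantifications for 5, namely Lyn, Syk, Tec, Fyb and Vav1. A coding isoform led in both libraries in 4 genes by TPM and in 8 by counts, where Btk-201 led Btk with 55.8% and 77.5% and Tec-201 led Tec with 44.5% and 29.6%.

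The 2 libraries were compared as log2 ratios, replicate 2 over replicate 1, on counts scaled by TMM, a normalisation that assumes most genes do not differ. With 1 library on each side there was no test, and a gene was called past 2-fold by its size alone. Of the 8 members with 10 counts in each library, 1 was past 2-fold (Vav1), where 7.25% of 13247 annotated genes were, and 3.23% were lower by 2-fold. Vav1 had a log2 ratio of -1.05, with a counting standard error of 0.040. Lyn followed at -0.73 and Btk at -0.62, while Src was at 0.58, Tec at 0.28, Syk at 0.20, Fyb at 0.11 and Skap2 at 0.01. Among 6748 protein-coding genes with a mean of 100 counts, the 5th to 95th percentile ran from -0.75 to 0.74, and 1.45% lay below Vav1 and 5.32% below Lyn. So Vav1 lay outside this range and the other 7 inside it, Lyn at its edge.

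Macrophage markers were also mostly lower in replicate 2, in 7 of 10, 3 of them past 2-fold, from -1.66 for Itgam to 0.69 for Cd14 on the log2 scale, these 2 being picked as the extremes. Their part in the lower Vav1 and Lyn values was not tested. The RNA input also differed between the libraries, and its effect cannot be told apart from that of the replicate.

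**Figure D4:**
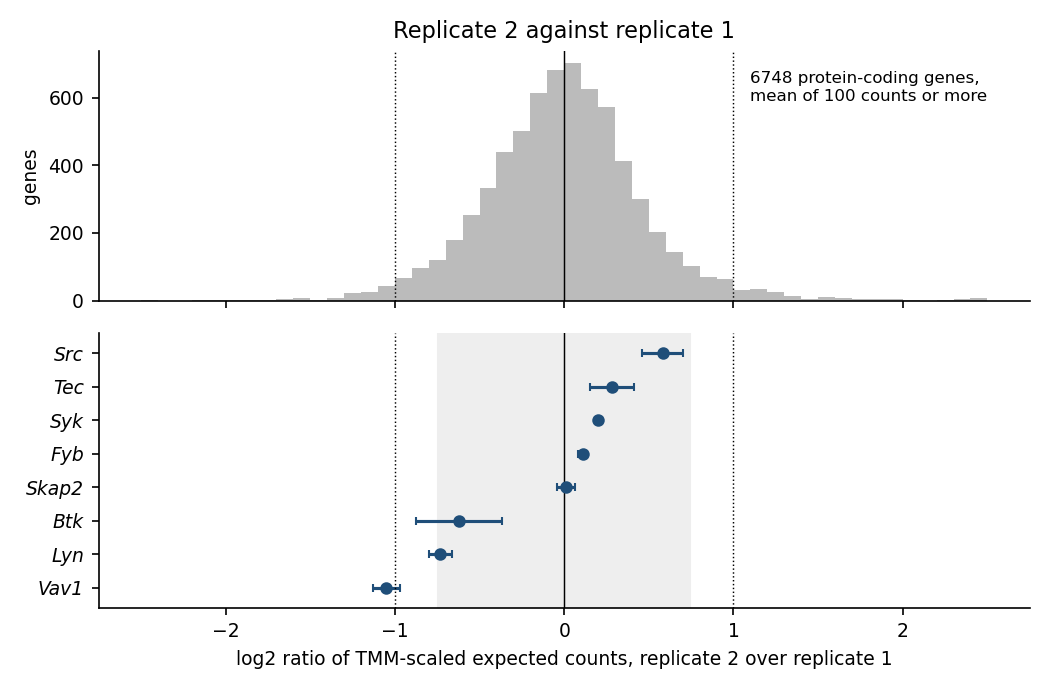
Upper panel, number of protein-coding genes averaging 100 counts or more by log2 ratio of replicate 2 over replicate 1, the outermost bars holding all genes beyond them; lower panel, the ratios of 8 members with their 95% counting intervals, the 5th to 95th percentile of those genes in grey and 2-fold limits dotted. Vav1 lies past the lower 2-fold limit and outside the grey range, and the other 7 lie within it.

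Reads of neighbours could add to some of these values. In all, 8 annotated genes overlap 4 of the members, 6 of them on the opposite strand, and whether reads were counted by strand is not given in the labels or headers. The largest was Gm26857, a long noncoding RNA gene opposite the start of Lyn (chr4:3678117-3689548), at 6167.8 and 6403.85 counts, more than Lyn itself in both libraries. It was not lower in replicate 2, unlike Lyn. Other genes overlapping Lyn were the pseudogenes Gm11805 (359 and 420 counts) and 9430025C20Rik (359 and 125) and the small nucleolar RNA gene Gm22781 (0 in both). Fyb overlaps the antisense gene Gm2245 (1533.69 and 1396.75 counts) and the pseudogene Gm7666 (560.2 and 549.37). Tec overlaps Gm43499, a gene model on its own strand (344 and 435 counts), and Btk overlaps the pseudogene Gm15154 (4 and 7 counts).

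Sequence found elsewhere touched Fyb, Lyn and Skap2, and Syk in 4 words of 30 bases each in Syk-201 and Syk-203 (0.0785% and 0.0750%). The largest share was that of the noncoding Fyb-206, with 57.4% of its words of 30 bases in 10 other genes, among them Phb and the overlapping Gm7666, and Fyb-206 held 37.86 and 48.52 TPM of Fyb. Of the words of 30 bases in Lyn-201, 20.5% also occur in Gm11787, an unprocessed pseudogene on the same chromosome, which held 2.52 and 8.29 counts. For Skap2-201 the share was 5.41% and for the noncoding Skap2-204 11.6%, with the pseudogene Gm9240 at 0 counts in both libraries. The retained-intron Skap2-206 shared 1.74% of its words with 31 genes. No transcript of Src, Fgr, Btk, Tec or Vav1 shared such a word with another gene. The deposited posterior SD of the count, which measures how far reads could be assigned elsewhere, was at most 7.01 counts for any member, in Lyn of replicate 2.

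The rest of the pathway was read from a list of 37 related genes grouped by role. Of these, 27 were at 1 TPM or more in both libraries, beside the 40.1% of protein-coding genes given above, and 22 were at 10 TPM or more. Their median was 33.8 TPM. The genes at 1 TPM or more included all 6 that control Src kinases, 10 of 12 adaptors, both other Vav genes and all 7 effectors, but 2 of 6 other Src kinases and none of the other Syk-family and Tec-family genes.

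Lck and Blk, the Src kinases of T and B cells, had 0 counts in both libraries, and a count of 0 allows up to 3 counts. Zap70, the T cell relative of Syk, had 0 counts as well. Bmx had 0 counts, and Txk was at 0.83 and 1.02 TPM. Tec and Btk were thus the 2 Tec-family genes above that level in both libraries. Txk was at a higher mean of 4.12 TPM by the alignment-free table.

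Ptprc, the CD45 phosphatase that removes the inhibitory phosphate of Src kinases, led the control group at 652.59 and 796.18 TPM. Pag1, which anchors the inhibitory kinase Csk, was its lowest member at 9.88 and 8.18 TPM. Among adaptors Sirpa, the inhibitory CD47 receptor that recruits Skap2 and Fyb, was highest at 956.12 and 979.98 TPM, close below Fyb. Skap1, the T cell relative of Skap2, had 0 counts in both. Vav3 was at 55.46 and 67.53 TPM and Vav2 at 20.18 and 11.37 TPM. Vav1 lay above Vav2 in both libraries, and above Vav3 in replicate 1 while at a like level in replicate 2. By the alignment-free table Vav1 was at 148.3 and 76.3 TPM and Vav3 at 96.0 and 124.2 TPM, so Vav3 was the higher in replicate 2.

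Of the effectors, Prkcd, a protein kinase C, was highest at 465.63 and 439.58 TPM, and Plcg1 lowest at 1.56 and 1.02 TPM. All 7 effectors were lower in replicate 2, 3 of them past 2-fold, namely Pik3cd (log2 ratio -1.57), Was (-1.35) and Inpp5d (-1.02). Ptpn6 (-1.04), the SHP-1 phosphatase, was also lower by 2-fold. That made 4 of the 28 related genes with 10 counts in each library, where 3.23% of all annotated genes were lower by 2-fold. These 4 were named for their values. No related gene of these 28 was higher by 2-fold, and the median log2 ratio was -0.26, beside 0.00 over all genes and 0.06 over the 8 members. Among the members Vav1, Lyn and Btk had the sign of the effectors in the main scaling, while Src, Tec, Syk, Fyb and Skap2 had the opposite one. A link between the members and the effectors was not tested.

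**Figure D5:**
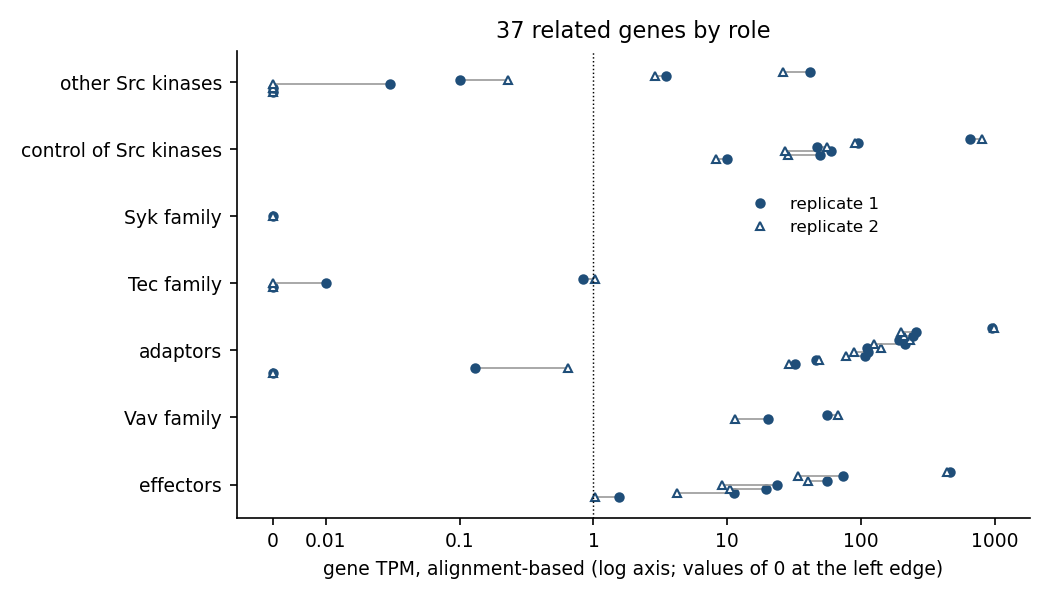
Alignment-based TPM (log axis, with values of 0 at the left edge) of 37 related genes by role, in replicate 1 (circles) and replicate 2 (triangles). The controllers of Src kinases, the effectors and most adaptors lie to the right of the dotted line at 1 TPM, and Lck, Blk, Zap70, Bmx and Skap1 lie at 0.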

How the data were processed

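Chromatin-fraction total RNA of 2 macrophage libraries was analysed, replicates 1 and 2 of 1 group. The members and lists were chosen with earlier results of these data known. The authors deposited expected counts and TPM per gene and transcript from transcriptome alignments (mm10, GENCODE M21, per the submitters' description files), with a posterior SD of each count, treated as a score. They also deposited estimated counts and TPM per transcript made directly from the reads, summed per gene here. The column names are those of RSEM and kallisto, per the file headers, while programs and settings are not given in the sources used. Entries naming no gene held 0.305% and 0.262% of counts and were left out.

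Rounded expected counts were scaled by TMM (edgeR 4.0.16), with a minimum of 10 counts in each library. DESeq2 1.42.0 size factors were an alternative. This step was tested on simulated data of 13516 genes, where 198 of 198 genes changed 4-fold and passing the minimum were recovered. The simulated counts held counting error only, with no other variation between replicates, and the changes were larger than the 2-fold limit. The simulation thus checks the computation and not how far a call between the 2 real libraries can be trusted. With 1 group no contrast was tested. SD is over n = 2. Isoform shares were ratios of TPM, and isoforms with or without a segment were compared over full coding isoforms. Named were all 9 members, the highest and lowest related gene of each role and all genes of roles with 3 or fewer, overlapping genes, and isoforms with 10% of their gene's TPM in either library. Some items under this rule are not reported here. No gene was sought for a pattern like a member's, since 2 libraries of 1 condition give none.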

Additional observations from a re-analysis of the deposited data

How the results depend on the processing

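Members past 2-fold between libraries numbered 2 in place of 1 with no minimum count and 0.5 counts added, and 2 by the alignment-free counts. In both cases the second was Fgr, at log2 ratios of -1.34 and -1.36, while Vav1 stayed between -1.04 and -1.12 under every scaling and filter tried. The ratios of Fyb and Skap2, neither past 2-fold, turned sign, Fyb to -0.02 by the alignment-free table and Skap2 to between -0.08 and -0.02 there, by total counts and with a minimum of 100 counts. The median retained-intron share of 40.1% became 20.8% by counts and 29.3% by the alignment-free table. With 1 library left out it ranged from 35.5 to 44.4%, members at 10 TPM from 7 to 8, the median log2 ratio of the quantifications from 0.26 to 0.28, and related genes at 1 TPM from 27 to 28. Scaling TPM over protein-coding genes alone raised every member, Syk from 790 to 2927 TPM, and left the order as it was. Shares with the segment and the alignment-free order were alternatives chosen after seeing the data. No paired analysis was possible because there is 1 group and no contrast. An SD of 2 values is imprecise, and genes of a few counts, such as Fgr in the alignment-based table, cannot be compared between libraries.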
